A study of Mus musculus with 55 samples.

Results

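Siglecs are lectins of the immunoglobulin superfamily on the surface of white blood cells that bind sugars ending in sialic acid. The 7 Siglec genes described here are those whose regulatory windows were scored in the macrophage ChIP-seq tables: Siglece, Siglecg, Siglecf, Cd33, Siglec1, Siglech and Cd22. A window was taken when the deposited annotation named one of these genes as nearest and its centre lay within 100 kb of the annotated start. That gave 33 of 97113 windows of open chromatin and 7 of 18490 annotated genes. No window of these genes lay further out, since 33 was also the number at any distance.

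The cells were bone-marrow-derived macrophages of C57BL/6 mice, grown in L-cell medium as a source of M-CSF and starved of serum overnight. They received 3'-sialyllactose (3'SL, a sialylated milk sugar, 100 µg/ml) together with LPS (lipopolysaccharide, the bacterial ligand of Tlr4, 10 ng/ml), LPS alone, 3'SL alone, or the vehicle PBS, each for 2 h or 6 h. H3K27ac, an acetyl mark on histones at active promoters and enhancers, and the acetyltransferase p300, which is recruited to active enhancers, were measured in the same groups. Values of 2 libraries per treatment and time were used, except for PBS, where 1 H3K27ac library at 6 h and 1 p300 library at each time could be matched to a column of values. The other PBS libraries labelled for these groups were not used here. The comparisons of LPS and of 3'SL with LPS to PBS share their PBS libraries and are not independent of each other. In every fit the lone PBS libraries were assumed to vary like the other groups. Nothing in the labels says that libraries of a group came from separate mice or cultures, so p-values measure only the spread between these libraries.

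Most Siglecs of the group related to Cd33 carry inhibitory motifs in their tails that recruit the phosphatases Ptpn6 and Ptpn11. Siglec1 (sialoadhesin) has no such motif and acts in adhesion and uptake by macrophages, while Siglech pairs with the adaptor Tyrobp. Siglece is the main inhibitory Siglec of mouse macrophages and neutrophils, Siglecf marks eosinophils and alveolar macrophages, Siglecg and Cd22 restrain B cells, and Siglech marks plasmacytoid dendritic cells.

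On mm10 the genes sat at 4 places. Siglecf (chr7:43351341-43359531, plus strand), Siglecg (chr7:43408204-43418358, plus strand), Cd33 (chr7:43524216-43544428, minus strand) and Siglece (chr7:43651070-43660161, minus strand) formed 1 cluster. Cd22 (chr7:30865402-30880342, minus strand) and Siglech (chr7:55768178-55778925, plus strand) lay elsewhere on the same chromosome, and Siglec1 (chr2:131069220-131086765, minus strand) on another. Siglecf and Cd33 had 7 windows each, Siglec1 had 6, Siglecg 5, Siglece 4, Siglech 3 and Cd22 1. The windows are named here by gene and by the distance of their centre from the annotated start in base pairs, negative upstream. Of the 33, 22 were intergenic (66.7%, against 35.9% of all windows), 6 were at promoters (18.2%, against 15.6%), 4 were in introns (12.1%, against 42.9%) and 1 was in an exon (3.03%, against 1.65%). The deposited annotation places the start of Cd33 inside the gene model used for the coordinates above, so that window Cd33 -11327 lay 70 bp from the start in that model. H3K27ac tags were counted over 1000 bp and p300 tags over 200 bp around each centre. Among the 1000-bp windows, 6 neighbouring pairs overlapped and share tags. Among the 200-bp windows, Cd33 +2578 overlapped Cd33 +2720, and Siglecf -1555 overlapped Siglecf -1419.

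The 5 windows below are among those called under LPS with or without the replicate number as a block, and their central 201 bases are printed because p300 was counted over them and H3K27ac over them and their flanks. All are from chromosome 7 of mm10 (RefSeq GRCm38.p6), plus strand, and all are intergenic: Siglece -4115 is chr7:43664176-43664376, Siglece -2859 is chr7:43662920-43663120, Siglecg -10680 is chr7:43397500-43397700, Siglecg -8647 is chr7:43399533-43399733 and Siglecf +20165 is chr7:43371406-43371606. Capitals mark matches to the motifs named in the next paragraph.
Siglece -4115: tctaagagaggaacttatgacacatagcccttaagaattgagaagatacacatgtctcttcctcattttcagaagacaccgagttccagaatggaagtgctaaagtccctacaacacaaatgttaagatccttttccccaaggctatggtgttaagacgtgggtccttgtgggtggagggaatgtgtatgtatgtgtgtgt
Siglece -2859: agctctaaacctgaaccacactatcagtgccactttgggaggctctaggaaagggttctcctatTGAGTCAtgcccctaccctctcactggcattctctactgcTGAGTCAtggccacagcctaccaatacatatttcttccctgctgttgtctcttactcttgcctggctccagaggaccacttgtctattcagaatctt
Siglecg -10680: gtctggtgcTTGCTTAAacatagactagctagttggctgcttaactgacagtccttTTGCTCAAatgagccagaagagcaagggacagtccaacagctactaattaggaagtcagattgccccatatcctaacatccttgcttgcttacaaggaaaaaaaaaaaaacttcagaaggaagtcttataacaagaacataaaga
Siglecg -8647: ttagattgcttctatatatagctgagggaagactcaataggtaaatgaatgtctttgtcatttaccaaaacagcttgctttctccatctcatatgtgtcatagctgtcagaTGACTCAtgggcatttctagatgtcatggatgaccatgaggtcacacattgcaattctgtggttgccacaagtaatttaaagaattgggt
Siglecf +20165: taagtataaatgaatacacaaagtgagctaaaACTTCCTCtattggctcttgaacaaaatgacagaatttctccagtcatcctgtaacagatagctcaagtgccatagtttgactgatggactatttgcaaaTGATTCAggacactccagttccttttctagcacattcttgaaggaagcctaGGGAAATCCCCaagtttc

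Searched on both strands, TGANTCA (AP-1) was present in 5 of the 33 windows (15.2%, against 17.2% of all windows), with 2 copies in Siglece -2859 and 1 each in Siglecg -8647 and Siglecf +20165. The NF-kB consensus was present in 4 of 33 (12.1%, against 6.35%), 1 of them Siglecf +20165, where it fills the last stretch in capitals. GAGGAAGT (PU.1) was present in 3 (9.09%, against 9.69%), its reverse complement being the first stretch in capitals of Siglecf +20165. TTGCNNAA (C/EBP) was present in 3 (9.09%, against 10.3%), with 2 matches in Siglecg -10680. The IRF motif and TTCNNNGAA (STAT) were present in 2 windows each (6.06%, against 3.27% and 5.73%). Siglece -4115 held none of these letters. These are matches of letters, not measured binding. Siglece -2859 lies in a stretch annotated as satellite repeat (ZP3AR). How reads mapping to several places were counted is not stated in the labels.

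Depth and the share of tags in the windows moved with the replicate number. H3K27ac libraries held 11.39 to 16.84 M tags in replicate 1, with 53.87% to 64.83% of them in the windows, and 4.20 to 39.6 M tags in replicate 2, with 72.4% to 79.34% in the windows. For p300, replicate 1 had 13.56 to 18.13 M tags and 6.12% to 9.42% in windows, and replicate 2 had 3.20 to 8.76 M tags and 20.1% to 27.48%. The p300 PBS libraries used were both of replicate 2, and so was the H3K27ac PBS library at 6 h. Without the block, H3K27ac differences from PBS at 6 h and all p300 differences from PBS therefore set both replicates against replicate 2 alone. Within replicate 2, the log2 difference in H3K27ac with LPS at 6 h was 1.77 at Siglece, 1.51 at Siglecg and -1.26 at Cd33. The titles of the H3K27ac replicate 1 libraries with LPS, 3'SL or both say 2 h where their treatment labels say 1 h, and the replicate 2 H3K27ac library titled 3'SL and LPS at 2 h is labelled as vehicle in its treatment field. The titles were followed. Values are given as normalised tags, the deposited tags per 10000000 rescaled by TMM. Summed over 8 macrophage marker genes, H3K27ac was 14400 to 18330 with 3'SL and LPS, 14210 to 20210 with LPS, 13580 to 16120 with 3'SL and 13170 to 17880 with PBS. The B cell markers Cd79a and Pax5 had no window, and Ebf1 had 0 to 14.9 normalised tags, while Cd79b had 30.8 to 139 and Ms4a1 517.7 to 1620. 5 neutrophil markers summed to at most 170.

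Summed over its windows, Siglec1 had the highest H3K27ac of the 7 genes, with a mean of 2317 normalised tags over all timed libraries, above 97.9% of all annotated genes. Cd33 averaged 431, Siglecg 327, Siglecf 321 and Siglece 282, which placed them above 68.6% to 77.1% of annotated genes. Their ranges over libraries overlapped, so these 4 were not ordered beyond their spread. Per window, Siglec1 averaged 386 normalised tags, Siglece 70.5, Siglecg 65.3, Cd33 61.5 and Siglecf 45.9. Siglech (1.35 to 10.1 summed normalised tags) and Cd22 (0 to 10.1) were at the level of the input libraries, which on the deposited scale held 18.4 and 13.3 tags per 10000000 at Siglech and 2.73 and 4.90 at Cd22. At the other 5 genes the inputs held 31.5 to 77.7. Cd22 and Siglech therefore had no H3K27ac signal above input at this depth.

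**Figure D1:**
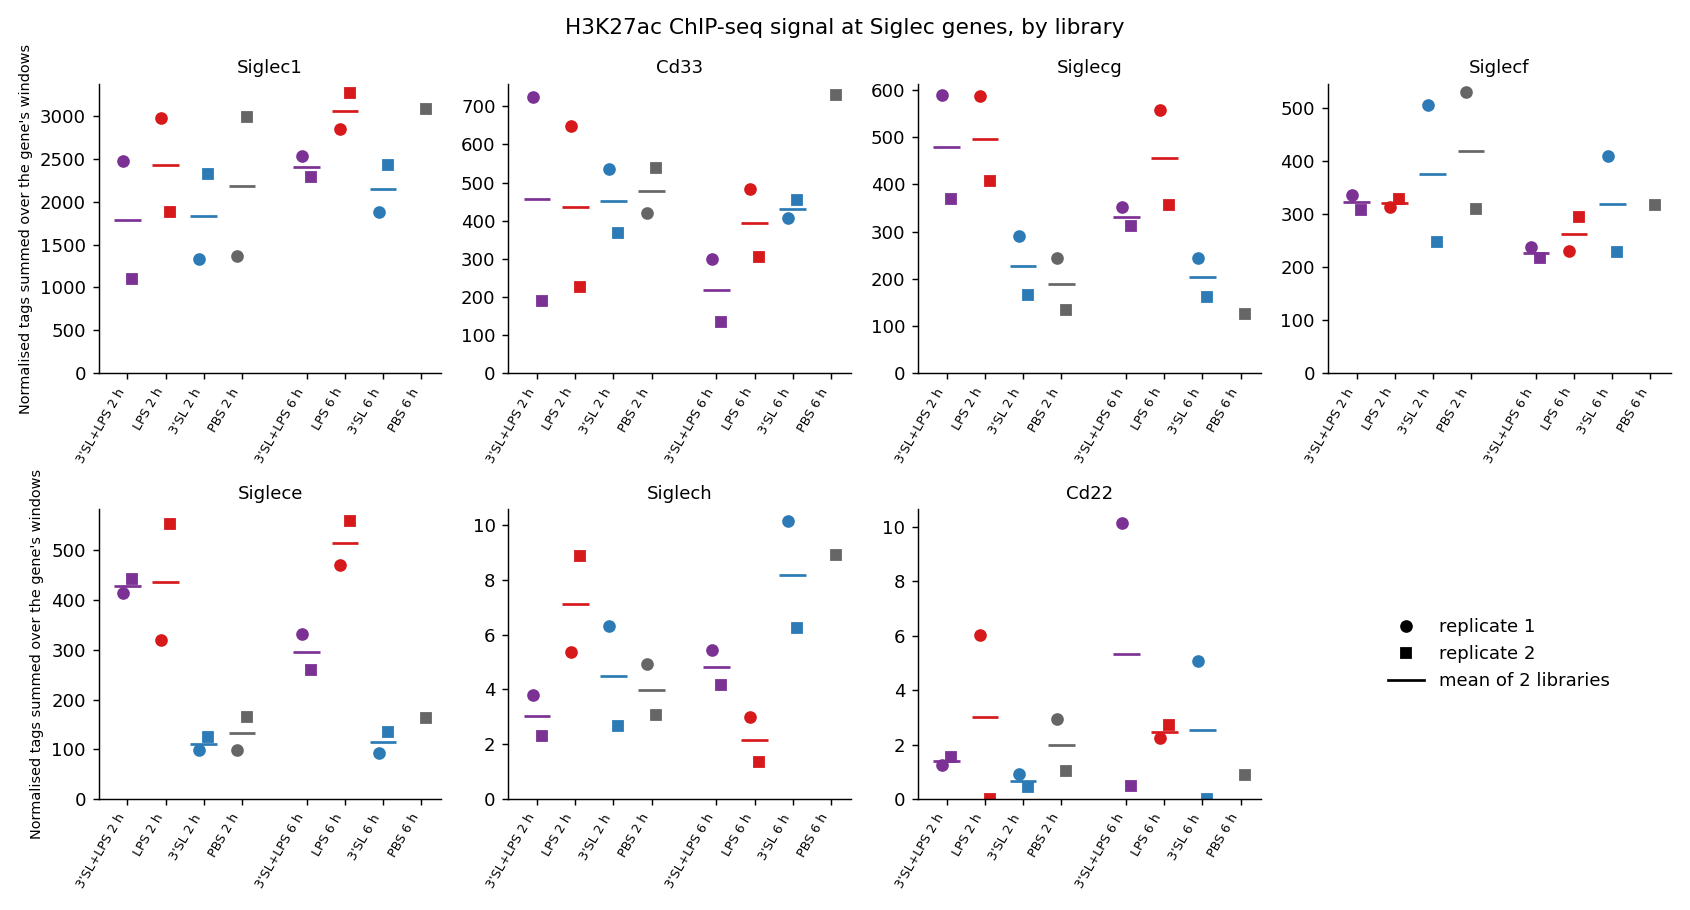
H3K27ac normalised tags summed over the windows of each Siglec gene (y axis, from 0, a separate scale per gene) by treatment and time (x axis); circles are replicate 1, squares replicate 2 and lines the mean of 2 libraries. Siglece and Siglecg stand higher in all libraries with LPS than in all libraries without it, while Siglec1, Siglecf and Cd33 overlap.

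Siglece, the inhibitory receptor of macrophages, gained H3K27ac under LPS. At 2 h its windows summed to 319.8 and 552.6 normalised tags with LPS, against 98.5 and 165.6 with PBS. Both LPS libraries lay above both PBS libraries, and the change was 1.71 ± 0.34 on the log2 scale (SE; 3.27-fold; limma adjusted p = 0.0170). With 3'SL and LPS the sums were 413.6 and 442.7, a change of 1.74 ± 0.34 over PBS (limma adjusted p = 0.0220). At 6 h LPS gave 471.4 and 559.4, against 163.0 in the single PBS library, a log2 difference of 1.65 ± 0.42 that did not pass (limma adjusted p = 0.116). With 3'SL and LPS at 6 h it held 331.7 and 260.5, a difference of 0.85 that did not pass with or without the block (limma adjusted p = 0.0947 and 0.561). Same-numbered libraries deviated together, and with the replicate number as a block the 6 h change was 1.82 and passed (limma adjusted p = 0.00500; 9.39e-06 to 0.457 over the alternatives tried). Siglece was the 1 of 7 genes that passed at 2 h in each comparison, where 5.86% of all genes passed with LPS against PBS and 4.01% with 3'SL and LPS against PBS. At 6 h 0 of 7 passed without the block, where 0.652% and 0.102% of all genes did in these comparisons. Its 2 h call with LPS ended without LPS replicate 2 and without PBS replicate 1, where the log2 change ranged from 1.32 to 2.10 over all libraries left out in turn. The call with 3'SL and LPS ended whichever library of the comparison was left out, with log2 changes of 1.36 to 2.11. Without the library labelled both as 3'SL with LPS and as vehicle it was 1.69 (limma adjusted p = 0.114), and without the LPS library labelled both 2 h and 1 h the LPS change was 2.10 (limma adjusted p = 0.0356). With the authors' library totals neither Siglece change passed (1.73 and 1.86, limma adjusted p = 0.0953 and 0.0979).

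Both windows upstream of Siglece rose, and the promoter and intronic windows were higher in value. Siglece -2859 had 69.4 and 82.6 normalised tags with LPS at 2 h, against 11.1 and 16.5 with PBS, a log2 change of 2.40 (limma adjusted p = 0.0168). With 3'SL and LPS it had 117.6 and 71.1, a change of 2.67 over PBS (limma adjusted p = 0.0151), and with LPS at 6 h it had 92.5 and 69.8 against 8.1, a change of 3.17 (limma adjusted p = 0.0390). Siglece -4115, the strongest window under LPS, had 128.5 and 246.4 with LPS at 2 h, against 34.3 and 43.4 with PBS (log2 change 2.18, limma adjusted p = 0.0264). Together with 3'SL, LPS gave 159.0 and 201.1 there (log2 change over PBS 2.18, limma adjusted p = 0.0338). Each of these 5 calls ended whichever library of its comparison was left out. In both windows no library with LPS overlapped any library without it, at either time. The promoter window Siglece -37 had 73.4 and 166.0 with LPS at 2 h, against 26.9 and 75.4 with PBS, and the intronic window Siglece +5427 had 53.0 and 96.5, against 20.42 and 32.001. These differences of 1.27 and 1.45 did not pass (limma adjusted p = 0.248 and 0.0691), and with the block both did.

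Siglecg, the inhibitory receptor best known from B cells, moved like Siglece in direction and size, but with a larger SE at 2 h (0.41 against 0.34). At 2 h its windows summed to 587.2 and 406.4 with LPS, against 245.2 and 133.9 with PBS. Each LPS library was above each PBS library and replicate 1 was the higher in both groups. The log2 difference of 1.43 ± 0.41 did not pass in limma without the block (adjusted p = 0.0722) and passed with it (limma adjusted p = 0.000258; 1.06e-05 to 0.410 over the alternatives tried). It passed in 7 of 16 alternatives, among them 4 without the block: the authors' library totals (limma adjusted p = 0.0356), DESeq2, PBS libraries pooled over times, and merged transcription factor peaks as windows. With 3'SL and LPS the sums were 590.4 and 369.9, a difference of 1.36 over PBS (limma adjusted p = 0.105, with the block 0.000475). At 6 h they were 558.0 and 356.2 with LPS and 352.7 and 311.0 with 3'SL and LPS, against 124.7 with PBS, and with the block the changes of 1.52 and 1.10 passed (limma adjusted p = 0.00263 and 0.0243). With the block 22.9% of all genes passed with LPS against PBS at 2 h, 18.9% with 3'SL and LPS, and 8.02% and 4.31% at 6 h in the same order. Siglece and Siglecg were the 2 genes of 7 that passed with the block at 2 h in both comparisons and at 6 h with LPS. Without the block the Siglecg differences at 6 h, 1.83 with LPS and 1.40 with 3'SL and LPS, did not pass. They passed in 5 and 3 of 14 alternatives.

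The Siglecg signal sat on 3 intergenic windows rather than at the promoter. Siglecg -10680 had 192.5 and 118.4 with LPS at 2 h, against 44.5 and 23.7 with PBS, Siglecg -11341 had 234.0 and 129.4, against 71.5 and 45.4, and Siglecg -8647 had 121.1 and 144.0, against 72.4 and 28.9. No LPS library overlapped a PBS library in these 3, and the differences of 2.18, 1.59 and 1.51 passed with the block (without it limma adjusted p = 0.0569, 0.0660 and 0.0970). Siglecg -11341 and Siglecg -10680 overlap and share tags. The promoter window Siglecg -490 held 0.8 to 10.0 normalised tags in all libraries, and Siglecg -15730 held 32.7 to 62.5 with overlapping groups.

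**Figure D2:**
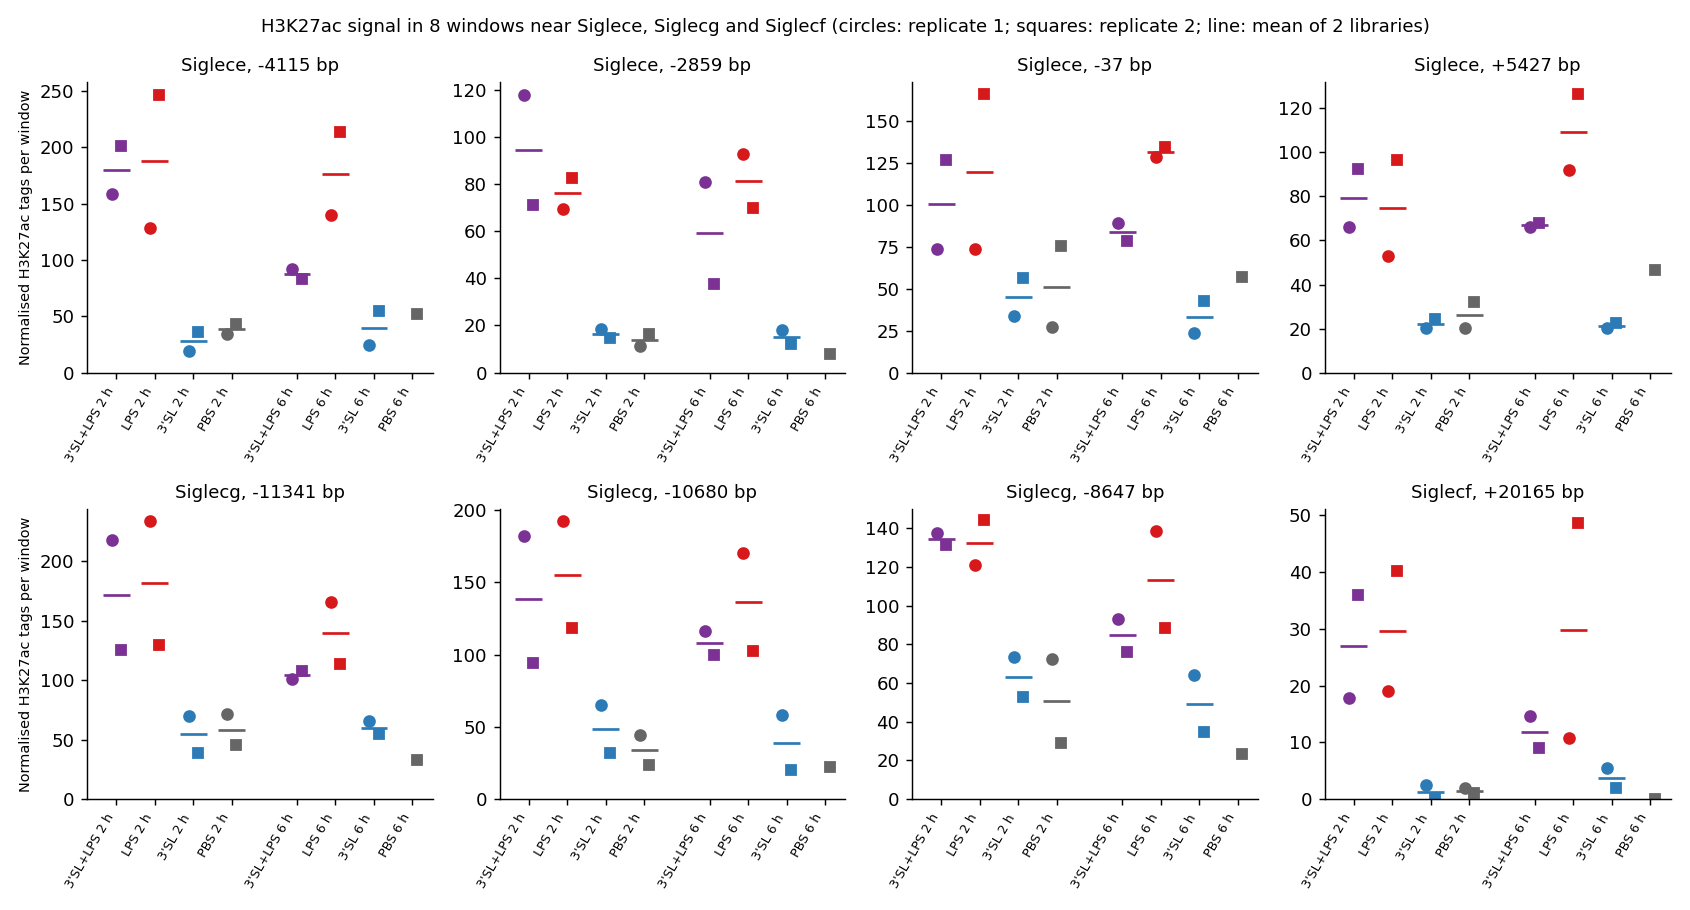
H3K27ac normalised tags in 8 windows near Siglece, Siglecg and Siglecf (y axis, from 0, a separate scale per window) by treatment and time; circles are replicate 1, squares replicate 2 and lines the mean of 2 libraries. At Siglece -4115 the libraries with LPS sit between 83.3 and 246.4 and those without it between 19.4 and 54.8.

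Siglecf, the eosinophil and alveolar macrophage receptor, had no call on its summed H3K27ac. Its sum was 314.4 and 328.5 with LPS at 2 h, against 530.8 and 309.7 with PBS, so the groups overlapped (log2 difference -0.33, limma adjusted p = 0.730). Siglecf +20165, between Siglecf and Siglecg, had 19.043 and 40.2 with LPS at 2 h, against 1.9 and 1.0 with PBS, a log2 difference of 3.58 (limma adjusted p = 0.0361). It passed the filter on low counts through its libraries with LPS, so this call is a description and supports nothing further, and it ended whichever library was left out. It held 17.8 and 36.0 with 3'SL and LPS (log2 difference over PBS 3.45, limma adjusted p = 0.0526, with the block 0.00553). At 6 h LPS gave 10.8 and 48.7 and PBS 0, with no fold given against 0. This window is nearer to Siglecf than to Siglecg, and the deposited table names it by the nearest start alone. Siglecf -8088 and Siglecf -7862, which overlap, followed the replicate number: replicate 1 libraries had 21.5 to 67.6 normalised tags in them and replicate 2 libraries 0 to 12.4, under all treatments.

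Cd33, which named the group and is inhibitory in human, had lower H3K27ac after 6 h of LPS than in the single 6 h PBS library. Its sums were 299.0 and 135.4 with 3'SL and LPS and 482.6 and 304.7 with LPS, against 729.6 with PBS. The libraries with 3'SL alone, at 408.0 and 454.1, were below that PBS library as well. It was the highest of all timed libraries, and the LPS libraries at 6 h overlapped the PBS libraries at 2 h. The log2 difference with LPS at 6 h was -0.93 without the block and -1.30 with it, and passed in neither fit. The log2 difference with 3'SL and LPS was -1.85 (limma adjusted p = 0.493), and with the block it was -2.23 and passed (limma adjusted p = 0.0414; 0.0189 to 0.739 over the alternatives tried). That call rests on 1 PBS library, of replicate 2. At 2 h the replicates disagreed: LPS was 0.62 higher than PBS on the log2 scale in replicate 1 and 1.25 lower in replicate 2, with sums of 648.3 and 226.1 with LPS, against 420.5 and 537.6 with PBS. The difference from the 6 h PBS library was largest in value in windows near the upstream start. Cd33 -11327 had 52.4 and 27.4 with 3'SL and LPS and 69.6 and 48.7 with LPS, against 208.4 with PBS, and passed with the block in both (log2 changes -2.58 and -1.98, limma adjusted p = 0.0156 and 0.0350). Cd33 -13022 went the other way in value, at 58.1 and 35.6 with LPS, against 20.6 with PBS, and did not pass.

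Siglec1, the receptor of macrophage adhesion, had the most signal and no call. At 2 h it had 2975 and 1882 normalised tags with LPS, against 1372 and 2992 with PBS, so the groups overlapped and the replicates moved in opposite directions (log2 1.12 in replicate 1 and -0.67 in replicate 2). At 6 h it had 2842 and 3267 with LPS, against 3076 with PBS (log2 difference -0.01, 95% interval -1.26 to 1.23). Its 4 windows from Siglec1 -4271 to Siglec1 -50 held most of the sum, each with 182.9 to 1106 normalised tags. An interval this wide includes 2-fold differences in either direction.

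Counted over windows, 30 of the 33 had enough tags to be tested for H3K27ac. With LPS at 2 h, 3 of the 30 rose and 0 fell without the block (Siglece -2859, Siglece -4115 and Siglecf +20165), where 5.14% of all windows passed in either direction. With the block, 8 rose and 0 fell, where 23% passed. With 3'SL and LPS at 2 h, 2 rose without the block (background 3.41%) and 8 with it (19.4%). At 6 h, 1 rose with LPS (0.676%) and none passed with 3'SL and LPS (0.103%). With the block these became 8 higher and 1 lower with LPS (9.18%), and 5 higher and 3 lower with 3'SL and LPS (4.61%). The 3 lower windows were Cd33 -11327, Cd33 -11610 and Cd33 -24, and the 1 lower with LPS was Cd33 -11327. Siglecf +20165 held at most 5.4 normalised tags without LPS, so its count among the calls follows in part from the filter on low counts.

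**Figure D3:**
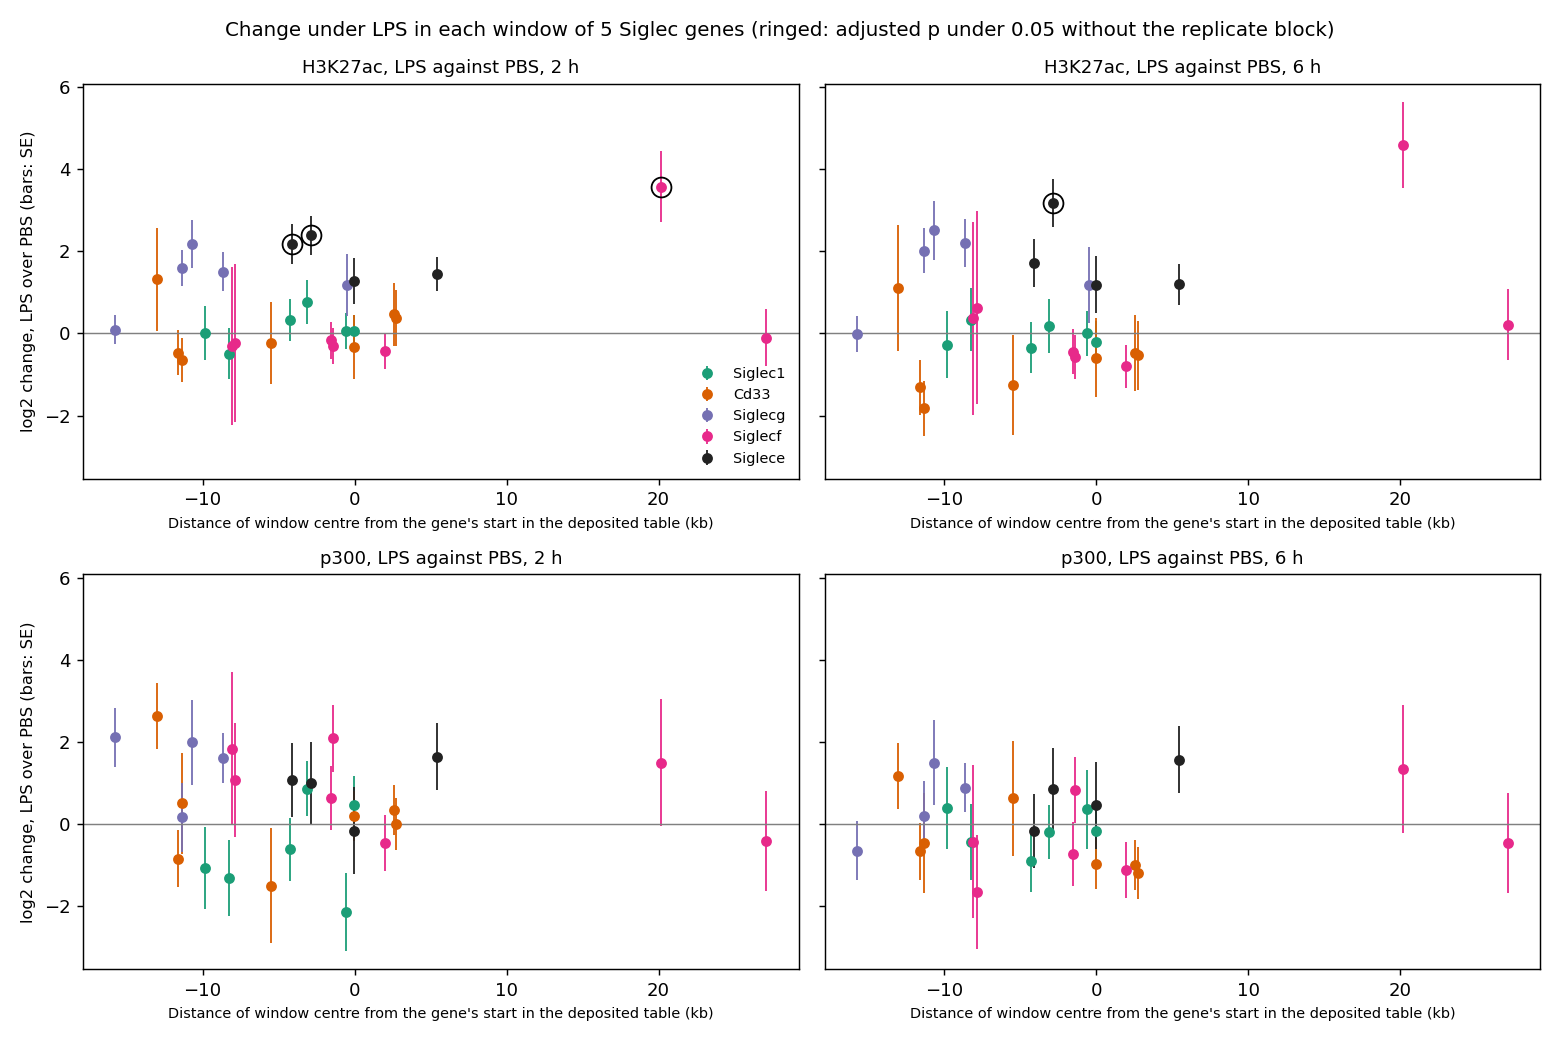
Log2 difference between LPS and PBS (y axis) in each tested window of Siglec1, Cd33, Siglecg, Siglecf and Siglece, by gene (colour) and distance from the annotated start in kb (x axis). H3K27ac and p300 are shown at 2 h and 6 h, with SE bars. Ringed points have a limma adjusted p under 0.05 without the replicate block. The 3 ringed points for H3K27ac at 2 h are Siglece -2859 at 2.40, Siglece -4115 at 2.18 and Siglecf +20165 at 3.58.

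p300 was measured with fewer tags, and Cd33 rather than Siglec1 had the highest mean. Their ranges over libraries overlapped (255.7 to 602.2 and 164.6 to 518.9 normalised tags), so these genes were not ordered beyond their spread. Cd33 +2578 and Cd33 +2720, with 22.8% and 27.9% of the Cd33 sum, overlap, so the sum counts their shared tags more than once. Summed over windows Cd33 averaged 441 normalised tags, Siglec1 351, Siglecg 269, Siglecf 144 and Siglece 75.5, while Cd22 and Siglech averaged 5.35 and 5.34. Per window Cd33 had 63.0, Siglec1 58.4, Siglecg 53.8, Siglecf 20.6 and Siglece 18.9. Without the block no Siglec gene of 6 tested and no window of 29 tested passed in any comparison, by limma, edgeR or DESeq2, where 1.33% of genes and 2.30% of windows passed with LPS against PBS at 2 h. The shares for 3'SL and LPS against PBS at 2 h were 1.33% of genes and 1.96% of windows. At 6 h the shares were 0.188% of genes and 0.423% of windows with LPS, and 0.025% and 0.214% with 3'SL and LPS. At an unadjusted p under 0.05 in limma with LPS against PBS at 2 h the count was 1 gene of 6, Siglecg, and 5 windows of 29. Over all features, 2115 of 15971 genes and 9097 of 62225 windows were under that threshold.

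Siglecg had the clearest p300 difference. At 2 h it had 371.6 and 396.0 with LPS and 338.0 and 442.5 with 3'SL and LPS, against 142.3 in the single PBS library. The log2 differences of 1.42 and 1.44 (limma adjusted p = 0.142 and 0.147) passed with the block at 1.61 and 1.62 (limma adjusted p = 0.00267 and 0.00250, with 8.05% and 7.27% of all genes called). Over the alternatives tried the LPS value ran from 0.66 to 1.62, with adjusted p from 0.000950 to 0.999. The lowest value was with the authors' library totals. These moved the median of all genes in this comparison to -0.73, against 0.00 after TMM scaling. The LPS libraries of replicates 1 and 2 had 9.42% and 22.1% of tags in windows, and the PBS library, of replicate 2, had 21.8%. On the deposited scale Siglecg held 558.13 with LPS and 200.05 with PBS in replicate 2, and 178.31 with LPS in replicate 1. The part of the replicate number in the shifted median was not tested. The Siglecg difference after TMM scaling is relative to the other genes. Most of it came from Siglecg -8647, which held 221.5 and 302.4 with LPS and 217.6 and 337.1 with 3'SL and LPS, against 84.0 with PBS (with the block 1.88 and 1.94, limma adjusted p = 0.00434 and 0.00326). In H3K27ac the same window passed with the block as well. At 6 h Siglecg had 249.4 and 306.9 with LPS, against 187.4 with PBS, and did not pass.

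Cd33 -13022, which had more H3K27ac in value under LPS, had 98.0 and 115.5 p300 tags with LPS at 2 h and 118.7 and 41.1 with 3'SL and LPS, against 16.4 with PBS, and passed for LPS with the block (log2 change 2.27, limma adjusted p = 0.0198). Siglecg -15730 passed for LPS as well, at 59.1 and 38.5 against 10.2 (log2 change with the block 2.30, limma adjusted p = 0.0203), but in none of the other alternatives, where the adjusted p reached 0.921. Siglece had few p300 tags, with 101.2 and 75.0 with LPS at 2 h, against 40.022 with PBS, a log2 difference of 1.10 with a 95% interval of -0.06 to 2.27 (limma adjusted p = 0.415). Its intronic window Siglece +5427 had 29.7 and 57.6 with 3'SL and LPS, against 8.2 with PBS, and passed with the block (log2 change 2.39, limma adjusted p = 0.0377). With the block, 3 of 29 windows passed with LPS (Siglecg -8647, Siglecg -15730 and Cd33 -13022; 7.08% of all windows) and 2 with 3'SL and LPS (Siglecg -8647 and Siglece +5427; 6.76%), each against 1 PBS library. edgeR with the block also called Siglecg -8647 in both comparisons and Cd33 -13022 with LPS, and did not call Siglecg -15730 or Siglece +5427. Over the alternatives tried the adjusted p ran from 0.0198 to 0.897 at Cd33 -13022 and from 0.0229 to 0.934 at Siglece +5427.

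No difference in summed p300 passed at Cd33, Siglec1 or Siglecf. Cd33 had 602.2 and 349.1 with 3'SL and LPS at 2 h and 514.4 and 496.0 with LPS, against 455.8 with PBS. At 6 h it had 269.2 and 255.7 with 3'SL and LPS and 349.6 and 476.6 with LPS, against 589.0 with PBS, so all 4 libraries with LPS were below the PBS library, as in H3K27ac. The 3'SL libraries, at 371.9 and 543.1, were below it too. The log2 difference was -1.16 with 3'SL and LPS (95% interval -2.15 to -0.17), which did not pass with or without the block (limma adjusted p = 0.158 and 0.605), and -0.53 with LPS (limma adjusted p = 0.831). Siglec1 had 436.7 and 201.5 with LPS at 2 h, against 329.1 with PBS, and replicate 1 was the higher of each pair with LPS. Siglecf had 192.7 and 130.6 with LPS at 2 h, against 111.2 with PBS, a log2 difference of 0.51 with a 95% interval of -0.67 to 1.69.

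**Figure D4:**
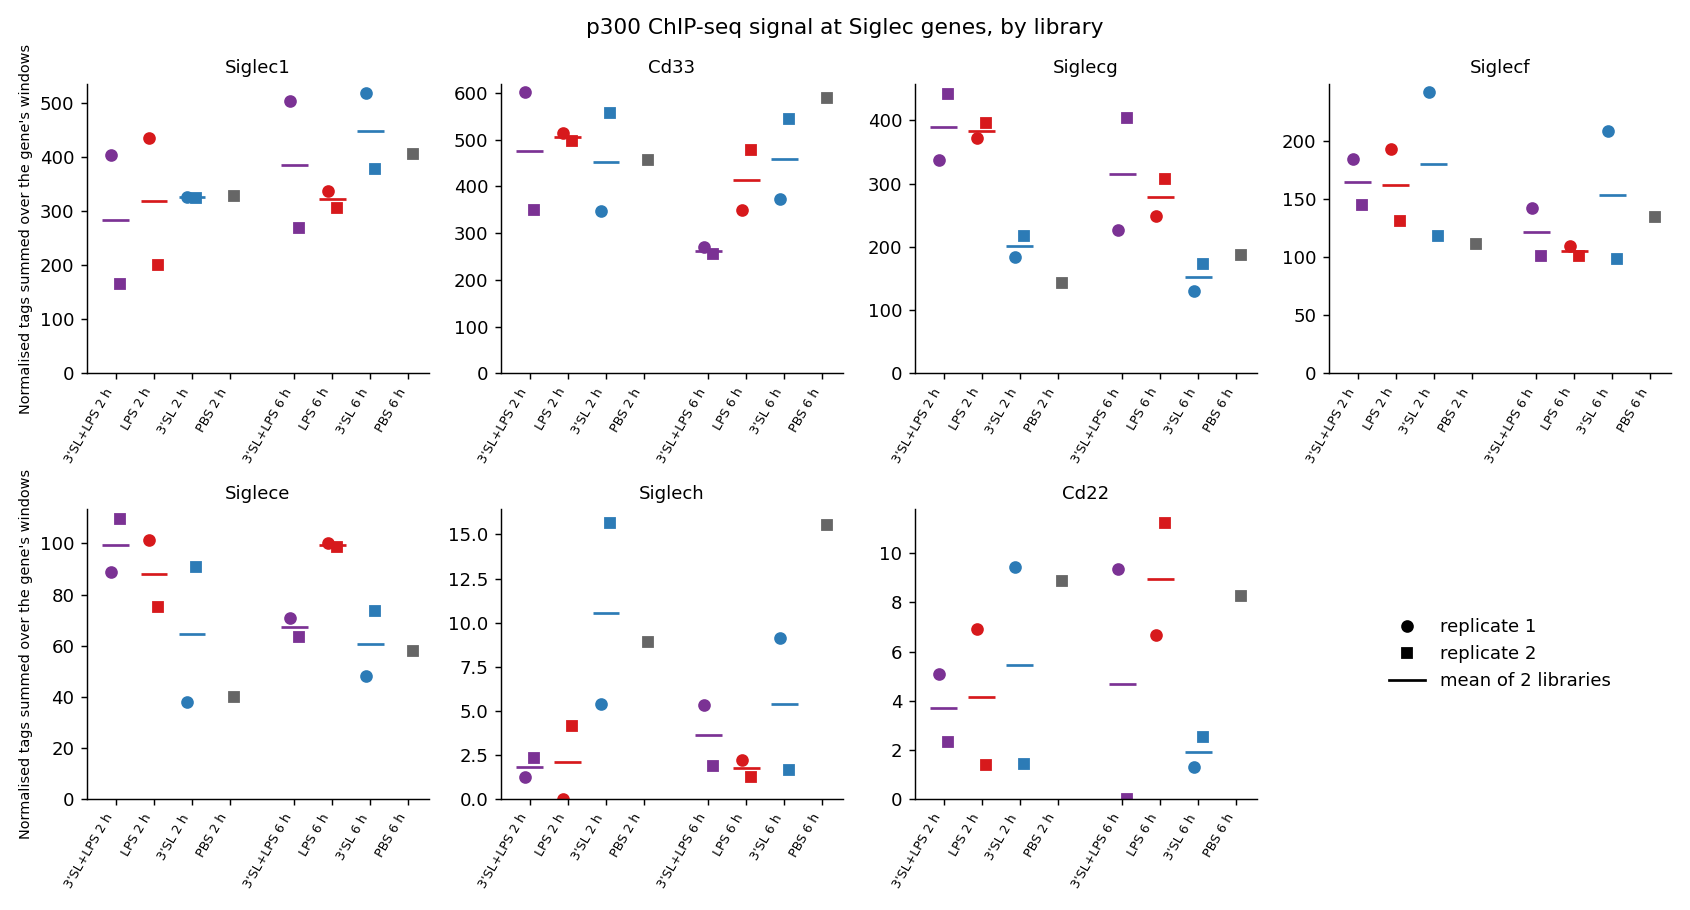
p300 normalised tags summed over the windows of each Siglec gene (y axis, from 0, a separate scale per gene) by treatment and time; circles are replicate 1, squares replicate 2 and lines the mean of 2 libraries, with 1 PBS library at each time. Siglecg at 2 h sits between 338.0 and 442.5 with LPS and at or below 217.5 without it.

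The effect of 3'SL itself was asked by 3'SL against PBS and by 3'SL and LPS against LPS. No Siglec gene and no Siglec window passed in these comparisons at either time in either assay, by limma with or without the block, by edgeR or by DESeq2. Over all genes 0 passed in H3K27ac without the block (0%), and in p300 0.0376% of genes and 0.0145% of windows passed for 3'SL against PBS at 2 h. At an unadjusted p under 0.05 the H3K27ac count by limma was 68 at 2 h and 198 at 6 h for 3'SL against PBS, and 30 and 89 for 3'SL and LPS against LPS. Siglece had 98.1 and 125.0 with 3'SL at 2 h, against 98.5 and 165.6 with PBS, and Siglecg had 289.9 and 164.9, against 245.2 and 133.9. The 95% intervals of the log2 difference were -0.96 to 0.55 for Siglece, -0.64 to 1.18 for Siglecg, -1.22 to 0.82 for Siglec1, -1.05 to 0.66 for Siglecf and -1.53 to 1.32 for Cd33. The interval of Cd33 includes 2-fold differences in both directions.

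The smallest unadjusted p for 3'SL under LPS in H3K27ac was that of Siglece at 6 h. It had 331.7 and 260.5 with 3'SL and LPS, against 471.4 and 559.4 with LPS, so that the 2 groups did not overlap. The log2 difference was -0.80 (95% interval -1.56 to -0.05, unadjusted p = 0.0388 in limma), and its adjusted p was 1 with and without the block (unadjusted p with the block 0.00727). All 4 Siglece windows were lower in value, from -0.53 at Siglece -2859 to -0.98 at Siglece -4115, with every interval reaching above 0. At 2 h the same comparison gave 413.6 and 442.7 with 3'SL and LPS, against 319.8 and 552.6 with LPS (log2 difference 0.03). Cd33 at 6 h had 299.0 and 135.4, against 482.6 and 304.7, and the log2 difference of -0.93 had a 95% interval of -2.35 to 0.50. The differences between the effect of 3'SL under LPS and alone, and between 6 h and 2 h for LPS, passed for no Siglec gene, where the largest share of all genes passing without the block was 0.00626% (p300, 6 h minus 2 h).

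**Figure D5:**
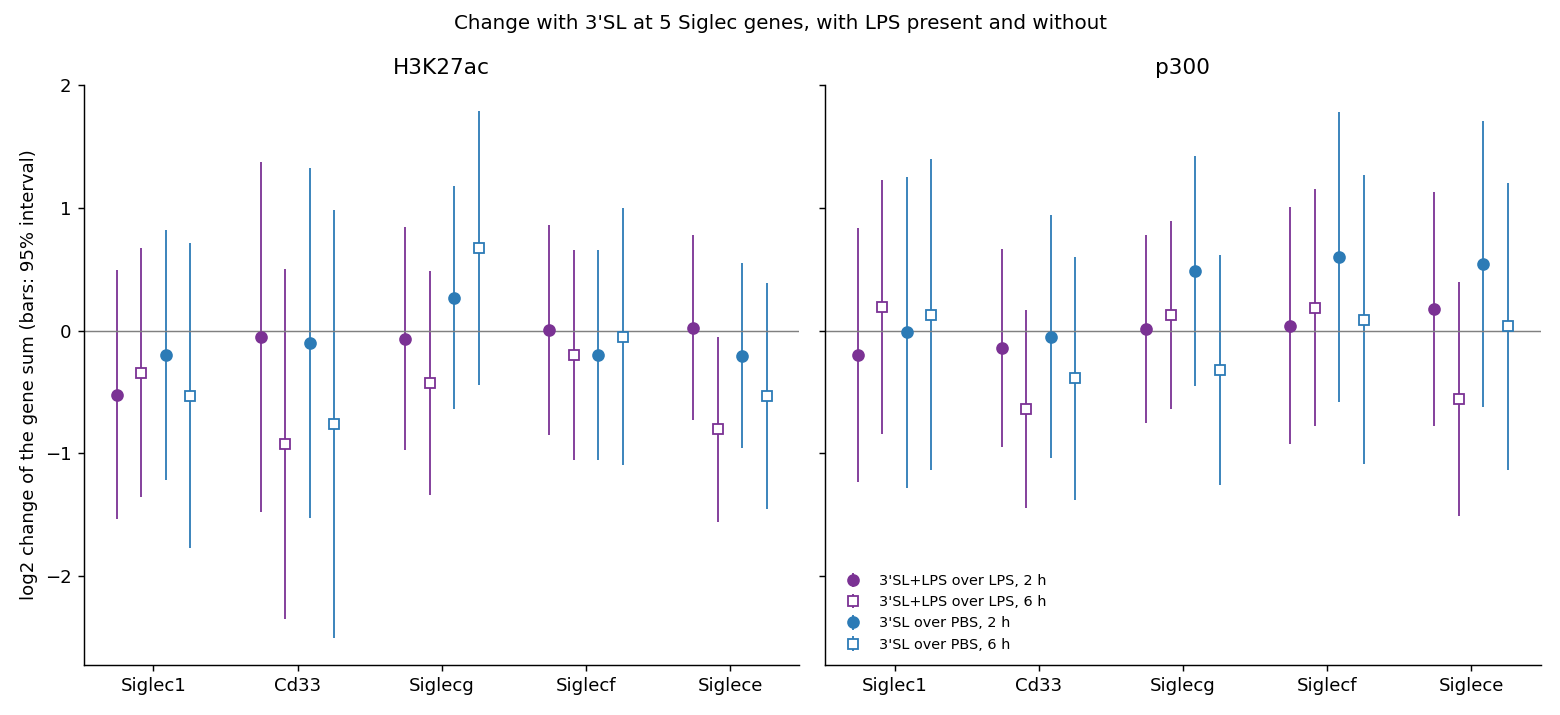
Log2 differences for 3'SL and LPS against LPS and for 3'SL against PBS at Siglec1, Cd33, Siglecg, Siglecf and Siglece, in H3K27ac and p300, with 95% intervals. Only the interval of Siglece for 3'SL and LPS against LPS in H3K27ac at 6 h stays below 0, from -1.56 to -0.05, among the 5 genes with signal above input and without the replicate block.

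Of 21 genes for partners and signalling of Siglecs, all tested, 3 rose and 0 fell in H3K27ac with LPS at 2 h, where 5.86% of all genes passed in either direction. Among them were Fgr (log2 1.03, limma adjusted p = 0.0376), a kinase of the Src family, and Socs3 (2.53, limma adjusted p = 0.00130), an inhibitor of cytokine signalling. At 6 h Socs3 alone passed with LPS (2.80, limma adjusted p = 0.00659; 0.652% of all genes). The phosphatases Ptpn6 (0.63) and Ptpn11 (0.11) and the adaptor Tyrobp (-0.62) did not pass. Siglec15, of the wider family, held 107 to 278 normalised tags and did not pass (log2 -0.75, limma adjusted p = 0.224), and Mag had no window. Among plasmacytoid dendritic cell markers, Ccr9 and Bst2 rose in H3K27ac at 2 h both with LPS and with 3'SL and LPS (2 of 4 measured, where 5.86% and 4.01% of all genes passed). Tcf4 and Cox6a2 did not pass. The summed level of the 4 over both times was 5376 to 7757 with 3'SL and LPS, 5935 to 9322 with LPS, 3672 to 4489 with 3'SL and 4222 to 4631 with PBS. Tcf4 carried most of this sum at 2987 to 6509, while Ccr9 held 179.5 to 1111, Bst2 195.3 to 1057 and Cox6a2 170.8 to 645.6. Klk1 and Spib had no window and Siglech was at input level. The eosinophil markers, of which Epx had no window, summed to 3073 to 4633 with 3'SL and LPS, 3367 to 5678 with LPS, 3969 to 4493 with 3'SL and 4475 to 5965 with PBS. Ccr3 carried this sum at 3046 to 5944, while Prg2 held 12.5 to 32.5 and Il5ra 1.8 to 14.1. The B cell markers with windows summed to 596 to 1561, 576 to 1678, 849 to 1495 and 1286 to 1401 in the same order, and the T cell markers, of which Cd3e and Cd3g had no window, to at most 593.5. In bulk chromatin, more cells of a type and more signal per cell cannot be told apart. The part of these markers in the Siglec results was not tested.

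In macrophages treated with the LXR agonist GW3965, the deposited peak lists covered the Siglec windows more often than windows at large. LXR peaks overlapped 15 of 33 (45.5%, against 27.7% of all windows), SREBP peaks 18 (54.5%, against 26237 of 97113 windows) and p300 peaks 24 (72.7%, against 39.4%), with at least 1 bp shared. With the peak centre required to lie in the window the counts were 14, 18 and 23. These are shares of windows, with no test, and the lists come from single treatments without an untreated list beside them here.

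Across the 15 timed H3K27ac libraries, the genes with summed signal most like Siglece were Lrrc63 (Pearson r = 0.984) and Ceacam18 (0.979), and those most like Siglecg were Gfi1 (0.974) and Bcl2a1b (0.968). The pattern of Siglec1 was most like Sctr (0.919), that of Siglecf like Map1a (0.906) and that of Cd33 like 4930459C07Rik (0.867). Siglece and Siglecg correlated at 0.692 with each other, and Siglec1 and Siglecf at -0.558. The libraries share treatments and replicate number, and these values describe only that.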

How the data were processed

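H3K27ac and p300 ChIP-seq libraries were compared over windows of merged ATAC-seq peaks. Per the submitters' processing notes the tools named are Bowtie2, HOMER and DESeq2 with mm10. The authors deposited a signal per window, tags scaled to 10000000 per library. Multiplied by the library totals in the file headers, 100% of values came out as whole tags within 0.05. Sums over the windows of each gene, and single windows, were fitted on the whole tables with limma 3.58.1 (R 4.3.3). Values were rescaled by TMM (edgeR 4.0.16), filtered with filterByExpr and tested as log2(value + 1), with group means over all 8 groups of a mark, trended variance, two-sided tests and Benjamini-Hochberg adjustment over all features at 0.05. Fold changes are on that scale and understate low signals. edgeR's quasi-likelihood test and DESeq2 1.42.0 on the whole tags, fits with the replicate number as a block and other settings were alternatives. limma with and without the block, and edgeR without the block on gene sums only, were tested on simulated tags for LPS against PBS at 2 h. The simulated tags held no replicate effect and the same dispersion for every feature. The fit with the block was therefore not tested where a replicate effect is present. DESeq2 and edgeR with the block were not simulated. There limma made more false calls than edgeR on gene sums against the lone p300 vehicle. The p300 window calls with the block are given beside those of edgeR, which was not simulated on windows.

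Same-numbered libraries deviated from their group means together in all pairs (correlations of 0.453 to 0.702 for H3K27ac genes and 0.271 to 0.462 for p300 genes), so the numbers were taken to pair the libraries, and values with the block stand beside results whose call they change. No replicates looked like 1 library deposited more than once (chi-square per degree of freedom 8.34 to 28.3). 12 value columns matched no sample and were not used. Tag depth limits precision, since windows with few tags vary by counting alone. The PBS libraries without a time and the ATAC-seq libraries were not compared. The p65 peak list was left out of the overlaps, since 329 of its 41220 peaks run past the chromosome ends of mm10. Genes were named by nearest start. Named genes are the 7 members and, as the most alike, those with the highest Pearson correlation of H3K27ac sums. The members and the lists of partners and cell type markers were chosen with earlier results of these data known. Some genes of these lists are not reported here by name.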

Additional observations from a re-analysis of the deposited data

How the results depend on the processing

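For each Siglec gene or window that passed with or without the block, the direction of change held under the alternatives it was recomputed under. Directions of differences that did not pass were not followed. That of Siglec1 in H3K27ac with LPS at 6 h was -0.01 without the block and 0.02 with it. The partner and cell type marker genes were not recomputed. Counts of Siglec genes and windows called moved with the error model. For H3K27ac gene sums, LPS against PBS at 2 h gave 2 with the replicate block, with edgeR and the block, with DESeq2, with the PBS libraries pooled over times (with and without the block; this pooling was chosen after seeing the data) and with merged transcription factor peaks as windows, where the fit without the block gave 1. With the authors' library totals the 1 gene was Siglecg in place of Siglece, here and with 3'SL and LPS. 3'SL and LPS against PBS at 2 h gave 2 under the same settings and 0 with the merged peaks, where the fit without the block gave 1. At 6 h, LPS against PBS gave 2 with the block, edgeR and the block, DESeq2 and both pooled fits, and 3'SL and LPS against PBS gave 2 with the block and with edgeR and the block, 1 with pooled PBS and 3 with pooled PBS and the block, where the fit without the block gave 0 in both.

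For H3K27ac windows, LPS against PBS at 2 h gave 3 without the block, 8 with it, 8 with edgeR and the block, 6 with DESeq2, 7 with pooled PBS and 8 with pooled PBS and the block. 3'SL and LPS against PBS at 2 h gave 2, then 8, 7, 6, 7 and 9 in the same order, and 1 with the authors' library totals. At 6 h, LPS against PBS gave 1, then 9, 8, 5, 6 and 11, and 0 with edgeR without the block. 3'SL and LPS against PBS at 6 h gave 0, then 8, 7, 2, 2 and 12.

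For p300 gene sums, LPS and 3'SL with LPS against PBS at 2 h gave 1 each with the block, edgeR and the block, and pooled PBS and the block, and 1 each at 6 h with the last of these, where the fit without the block gave 0. For p300 windows the 2 h counts were 3, 2 and 2 with LPS and 2, 1 and 3 with 3'SL and LPS under those 3 settings, and 2 and 4 at 6 h with the last. The cause was not tested.

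With each library left out in turn, the count of H3K27ac genes called was 0 to 1 for LPS against PBS at 2 h and 0 for 3'SL and LPS. The counts of windows were 0 throughout where 3, 2 and 1 were called. These fits were without the block and had fewer libraries to estimate the spread, and the cause was not tested. The log2 change of Siglece ranged from 1.32 to 2.10 with LPS and from 1.36 to 2.11 with 3'SL and LPS at 2 h. Siglece -2859 ranged from 2.13 to 2.66 with LPS at 2 h, from 2.30 to 3.02 with 3'SL and LPS and from 2.96 to 3.34 with LPS at 6 h, Siglece -4115 from 1.71 to 2.61 and from 2.01 to 2.35, and Siglecf +20165 from 3.06 to 4.07. Scaling by the authors' library totals moved the median of all genes by -0.17 to 0.14 for the treatment comparisons in H3K27ac and by -1.04 to 0.34 in p300. With 1 or 2 PBS libraries a group, small differences at these genes cannot be seen.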
